A study of Mus musculus with 12 samples.

Results

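The genes described here are 10 canonical targets of YAP, the transcriptional coactivator encoded by Yap1, in mouse medulloblastoma with and without a floxed Yap1 allele. They were chosen by symbol as known YAP and TEAD targets, with earlier results of these data known. Ccn1, Ccn2, Amotl1, Amotl2, Crim1, Myof, Nt5e, Axl, Ajuba and Asap1 were all found among the 15672 genes of the table, and all 10 were among the 14147 genes that passed the filter on low values. The 12 bulk RNA-seq libraries came from MB tissue taken at end point, and each of the 4 groups had 3. YSGr tumours came from fYap1;fSMO-M2;hGFAPcre mice, which the design text calls rescued, without saying what was rescued. SG tumours came from fSMO-M2;hGFAPcre mice. Males and females formed separate groups within each genotype, and ages were not given. Both genotypes thus carry SMO-M2, an activated Smoothened that switches on the Hedgehog pathway, and Cre under the human GFAP promoter. That promoter is known to act in neural progenitors and their descendants, and vessels and immune cells are not known to use it. Libraries are named below by genotype, sex and the number in their label.

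In the Hippo pathway, the LATS kinases phosphorylate YAP and its relative TAZ (Wwtr1) and keep them out of the nucleus. Unphosphorylated YAP binds TEAD factors and drives transcription of target genes, whose levels are widely used as a readout of YAP activity. Several targets encode proteins that act back on the pathway. In the developing cerebellum, YAP is known as a coactivator that Hedgehog signalling raises in granule neuron progenitors, the cells from which this tumour arises.

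Estimated reads totalled 8854766 to 9478673 per library. In the deposited values, which are scaled to a common library size, 1 read was worth 0.1003 to 0.111 CPM. The deleted gene followed the labels. Yap1 (chromosome 9, mm10) had 33, 29 and 14 estimated reads in YSGr males and 9, 12 and 7 in YSGr females, against 211, 174 and 201 in SG males and 205, 208 and 253 in SG females. The 12 markers of granule neuron progenitors and Hedgehog tumours summed to 4095 to 6725 CPM in YSGr and 5416 to 6817 CPM in SG libraries, and none was at 0. SG male 2 stood apart for the target genes. It was the lowest of all 12 libraries for 5 of the 10 and lay 0.47 log2 units below their means, averaged over the 10 genes. YSGr female 12 lay further below by that average (-0.62) and was the lowest for 2 of the 10. The labels do not say that libraries came from separate animals, so p-values measure the spread between these libraries, which may be technical.

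The 10 targets did not move together. Averaged over the sexes, Ajuba and Nt5e fell in YSGr tumours, Myof rose, and the other 7 did not pass an adjusted p of 0.05. Ajuba fell most, to 3.08 ± 0.953 CPM in YSGr against 12.3 ± 2.26 CPM in SG tumours (SD, n = 6 each), and was the only one of the 10 whose genotypes did not overlap. Nt5e fell to 5.57 ± 1.25 CPM in YSGr, against 11.0 ± 2.36 CPM in SG. Myof rose to 6.58 ± 3.54 CPM in YSGr, against 2.11 ± 0.899 CPM in SG. Tests were made with limma over all 14147 genes with Benjamini-Hochberg adjustment. By the same rule 11.4% of all genes tested were called, 6.16% higher and 5.27% lower in YSGr, and 5.9% of all genes did not overlap between the genotypes. The targets' 3 of 10, 1 higher and 2 lower, with 1 that did not overlap, stand against those shares. Their median log2 fold change was -0.23, beside -0.0048 over all genes. Without an adjustment, 5 of the 10 had p under 0.05, beside 4044 of all genes. Without SG male 2, 5 of the 10 were called, Amotl1 and Asap1 in addition. Fits that left out 1 library called 903 to 2087 of all genes, so the 11.4% is not the share to set beside that count. The share without SG male 2 is not given here. Within 1 sex only 3 libraries stand against 3, so groups lie apart more easily. The share of all genes whose groups lie apart within 1 sex was not counted.

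**Figure D1:**
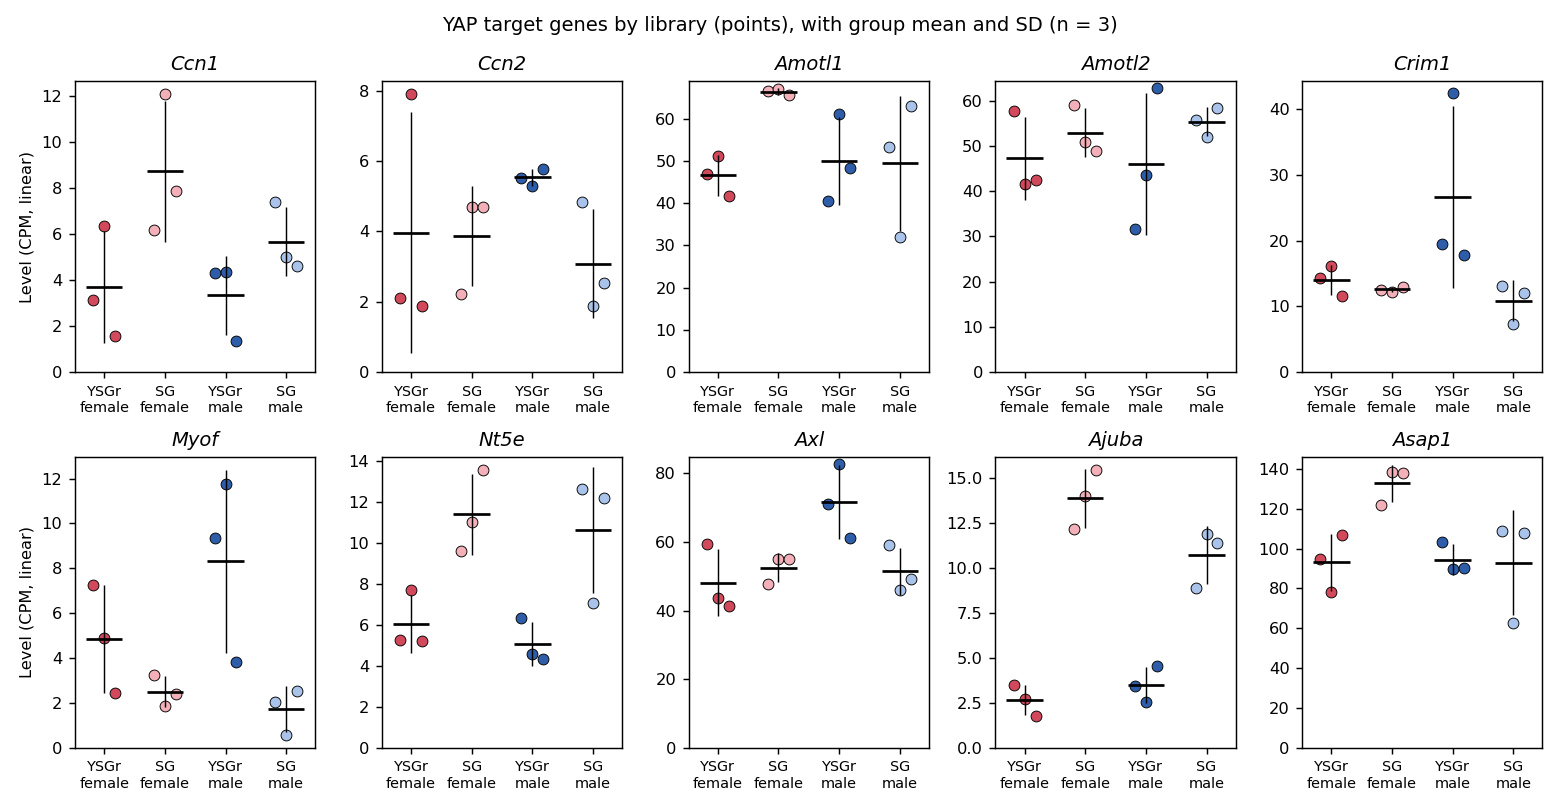
Level of each target gene (linear CPM) in the 12 libraries, grouped as YSGr female, SG female, YSGr male and SG male. Points are libraries, horizontal lines group means and vertical lines SD (n = 3). All 6 YSGr libraries lie at 1.78 to 4.55 CPM for Ajuba and all 6 SG libraries at 8.85 to 15.4 CPM, while the Crim1 panel shows YSGr male 8 at 42.5 CPM.

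Ajuba encodes a LIM-domain scaffold that binds LATS kinases and lowers their activity towards YAP. The gene lies on chromosome 14 from 54567472 to 54577558, minus strand (GENCODE M21, mm10). It was measured at 3.46, 2.71 and 1.78 CPM in YSGr females, against 12.2, 14.0 and 15.4 CPM in SG females. In males it was measured at 3.41, 2.55 and 4.55 CPM in YSGr, against 8.85, 11.9 and 11.4 CPM in SG. Every YSGr library lay below every SG library in both sexes. The log2 fold change was -1.96 ± 0.19 averaged over the sexes (SE, limma adjusted p = 8.9e-05), which ranked 29th of all genes by p. It was -2.34 ± 0.28 in females (adjusted p = 0.0011) and -1.58 ± 0.28 in males (adjusted p = 0.0089). The difference between the sexes, female effect minus male effect, was -0.76 (95% interval -1.60 to 0.08, adjusted p = 0.44). The averaged call held when each of the 12 libraries was left out in turn.

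Nt5e encodes CD73, a surface enzyme that turns extracellular AMP into adenosine. It lies on chromosome 9 from 88327197 to 88372092, plus strand. Levels were 5.25, 7.70 and 5.22 CPM in YSGr females, against 9.64, 11.0 and 13.6 CPM in SG females. Levels in males were 6.32, 4.56 and 4.34 CPM in YSGr, against 12.7, 7.10 and 12.2 CPM in SG. Within each sex the genotypes did not overlap, and over all 12 libraries the single crossing was YSGr female 11 above SG male 2. The log2 fold change was -0.96 ± 0.19 on average (limma adjusted p = 0.0070), and this call held without any 1 library. It was -0.90 ± 0.27 in females (adjusted p = 0.10) and -1.01 ± 0.27 in males (adjusted p = 0.042). The male call was lost in 8 of 12 fits that left out 1 library (SG 1, 3, 4, 5 and 6 and YSGr 8, 9 and 10, adjusted p 0.054 to 0.13). Of these, SG 4, 5 and 6 and YSGr 10 are female, and leaving them out kept the male value at -1.01. Only the spread shared by the groups and the adjustment over all genes changed. Without SG male 2 the call was also made in females (adjusted p = 0.040), with the female value unchanged at -0.90. The sexes' effects differed by 0.11 (95% interval -0.71 to 0.94).

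Myof encodes myoferlin, a ferlin-family membrane protein with roles in membrane repair and vesicle traffic. It lies on chromosome 19 from 37899036 to 38043577, minus strand. It was measured at 7.24, 4.89 and 2.44 CPM in YSGr females, against 3.25, 1.85 and 2.41 CPM in SG females. Males had 9.33, 11.8 and 3.82 CPM in YSGr, against 2.06, 0.554 and 2.53 CPM in SG. The male groups were fully apart, the female groups overlapped, and SG male 2 held only 5 estimated reads. The log2 fold change was 1.51 ± 0.38 on average (limma adjusted p = 0.023), 2.20 ± 0.54 in males (adjusted p = 0.032) and 0.81 ± 0.54 in females (adjusted p = 0.57). Female and male effects differed by -1.39 (95% interval -3.03 to 0.25, adjusted p = 0.46). The averaged call was lost without SG female 5, SG female 6 or YSGr female 10 (adjusted p 0.057 to 0.063). In males it was lost without SG male 2 (1.63, adjusted p = 0.10), YSGr male 8 (adjusted p = 0.12), YSGr male 7, SG female 5 or SG female 6. With SG male 2 and YSGr male 8 both left out, which was chosen after their values were seen, the average was 1.06 (adjusted p = 0.061) and the male value 1.32 (adjusted p = 0.22).

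Crim1 encodes a transmembrane protein with cysteine-rich repeats that binds bone morphogenetic proteins. It lies on chromosome 17 from 78200248 to 78376592, plus strand. YSGr females had 14.4, 16.1 and 11.5 CPM, against 12.5, 12.2 and 13.02 CPM in SG females. YSGr males had 19.5, 42.5 and 17.8 CPM, against 13.2, 7.32 and 12.1 CPM in SG males. The female ranges overlapped and the male ranges did not, with YSGr male 8 highest and SG male 2 lowest of all 12. The averaged log2 fold change of 0.67 ± 0.22 did not pass (limma adjusted p = 0.064), although it did without YSGr male 9 (0.79, adjusted p = 0.044). In males it was 1.203 ± 0.31 (adjusted p = 0.038) and in females 0.14 ± 0.31 (adjusted p = 0.91). The male call was lost in 7 of 12 fits that left out 1 library, without SG 2, 3, 4, 5 or 6, YSGr 8 or YSGr 10 (adjusted p 0.051 to 0.12). Of these, SG 4, 5 and 6 and YSGr 10 are female, and leaving them out did not change the male value. The male value was 0.81 without YSGr male 8 and 0.95 without SG male 2. Fez2, on the opposite strand, shares 123 exon bases with Crim1 (2.05% of its exon length) and had a log2 fold change of 0.02 (adjusted p = 0.96). Whether counting used strand was not given.

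Ccn1 and Ccn2, formerly Cyr61 and Ctgf, encode secreted matricellular proteins that bind integrins, and are among the most used YAP reporters. Ccn1 (chromosome 3, 145646976 to 145649981, minus strand) had 3.15, 6.35 and 1.55 CPM in YSGr females, against 6.19, 12.1 and 7.88 CPM in SG females. In males Ccn1 had 4.31, 4.35 and 1.34 CPM in YSGr, against 7.41, 4.99 and 4.63 CPM in SG. All 6 YSGr libraries lay below the SG median of 6.80 CPM, while the ranges overlapped through YSGr female 11. Its log2 fold change of -1.10 ± 0.35 did not pass (limma adjusted p = 0.061), with 95% interval -1.86 to -0.34 before adjustment. It was -1.35 ± 0.50 in females (adjusted p = 0.20) and -0.86 ± 0.50 in males (adjusted p = 0.26). Without YSGr female 11 the averaged value was -1.34 and passed (adjusted p = 0.023).

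Ccn2 (chromosome 10, 24595442 to 24598683, plus strand) had an averaged value of the other sign than Ccn1. Neither gene passed on average, and the difference between them was not tested. Levels of Ccn2 were as follows. It had 2.10, 7.91 and 1.89 CPM in YSGr females, against 2.23, 4.69 and 4.70 CPM in SG females. In males Ccn2 had 5.52, 5.30 and 5.79 CPM in YSGr, against 4.84, 1.88 and 2.53 CPM in SG. The female groups overlapped, with YSGr female 11 highest of all 12 libraries, and the male YSGr libraries lay above the male SG libraries. The log2 fold change was 0.36 ± 0.35 on average (adjusted p = 0.53), -0.19 ± 0.49 in females (adjusted p = 0.93) and 0.90 ± 0.49 in males (limma adjusted p = 0.23). The 95% interval of the averaged value ran from -0.40 to 1.11.

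Amotl1 and Amotl2 encode angiomotin-like proteins of cell junctions that bind YAP and hold it outside the nucleus. Amotl1 (chromosome 9, 14541966 to 14645056, minus strand) had 46.9, 51.3 and 41.7 CPM in YSGr females, against 66.7, 67.1 and 65.6 CPM in SG females. YSGr males had 40.4, 61.1 and 48.3 CPM of Amotl1, against 53.3, 31.9 and 63.1 CPM in SG males. The female groups were apart and the male groups were mixed. Amotl1 had a log2 fold change of -0.23 ± 0.16 on average (limma adjusted p = 0.35), -0.51 ± 0.22 in females (adjusted p = 0.29) and 0.05 ± 0.22 in males (adjusted p = 0.90). Without SG male 2 it was -0.37 on average and passed (adjusted p = 0.046), and the male value turned to -0.24 (adjusted p = 0.39). The male value was also negative without YSGr male 8, at -0.11.

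Amotl2 (chromosome 9, 102716672 to 102733418, plus strand) had 57.8, 41.6 and 42.4 CPM in YSGr females, against 59.1, 51.0 and 48.9 CPM in SG females. YSGr males had 31.6, 43.5 and 62.7 CPM of Amotl2, against 55.7, 52.0 and 58.5 CPM in SG males. The SG libraries lay close together and the YSGr libraries spread to both sides of them. The averaged log2 fold change was -0.25 ± 0.15 (95% interval -0.58 to 0.08, limma adjusted p = 0.30).

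Axl encodes a receptor tyrosine kinase of the TAM family, whose ligand is Gas6. Axl (chromosome 7, 25757273 to 25788705, minus strand) had 59.3, 43.6 and 41.4 CPM in YSGr females, against 47.7, 54.99 and 54.91 CPM in SG females. It had 70.9, 82.6 and 61.1 CPM in YSGr males, against 59.2, 46.0 and 49.1 CPM in SG males. The YSGr males were the highest 3 of the 12 libraries and the YSGr females covered both ends of the SG range. The log2 fold change was 0.16 ± 0.12 on average (limma adjusted p = 0.39), -0.14 ± 0.17 in females (adjusted p = 0.81) and 0.47 ± 0.17 in males (adjusted p = 0.093). Gas6 averaged 49.4 ± 20.2 CPM in YSGr and 62.9 ± 11.7 CPM in SG (SD, n = 6 each), with a log2 fold change of -0.42 ± 0.18 that did not pass (adjusted p = 0.15). Pros1, a ligand of related TAM receptors, was at -0.12 ± 0.12 (adjusted p = 0.55).

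Asap1 encodes a GTPase-activating protein for Arf, which acts on membrane traffic and focal adhesions. Asap1 (chromosome 15, 64086857 to 64382919, minus strand) had 94.6, 78.2 and 107 CPM in YSGr females, against 122, 138 and 138 CPM in SG females. It had 103, 90.0 and 90.0 CPM in YSGr males, against 109, 62.4 and 108 CPM in SG males. The female groups were apart, and the male groups were mixed through SG male 2. The log2 fold change was -0.23 ± 0.14 on average (limma adjusted p = 0.30), -0.52 ± 0.20 in females (adjusted p = 0.22) and 0.06 ± 0.20 in males (adjusted p = 0.85). Without SG male 2 it passed on average (-0.36, adjusted p = 0.024) and in females (unchanged at -0.52, adjusted p = 0.030). The male value turned to -0.20 (adjusted p = 0.37). The male value was also at -0.0017 without YSGr male 7.

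**Figure D2:**
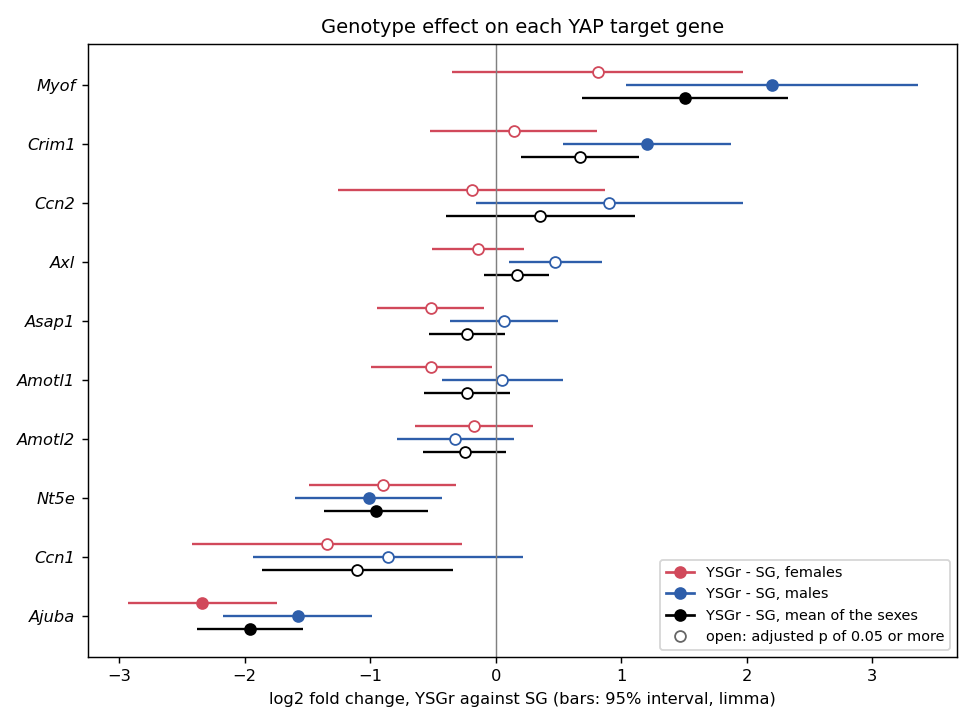
log2 fold change of YSGr against SG for each target gene, in females, in males and as the mean of the sexes, with 95% intervals from limma before adjustment. Filled points have an adjusted p under 0.05. Ajuba is filled at all 3 points, from -2.34 in females to -1.58 in males, and Myof and Crim1 sit at 2.20 and 1.203 in males.

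The series title asks about sex differences, so the effects within each sex and their difference were compared. In females 1 of the 10 targets fell, Ajuba, and none rose, where 3.01% of all genes were called. In males 2 fell, Ajuba and Nt5e, and 2 rose, Myof and Crim1, where 7.85% of all genes were called, 4.43% higher and 3.42% lower. The median log2 fold change of the 10 was -0.35 in females and 0.06 in males, beside 0.01 and -0.01 over all genes. The sign of the male median rested on single libraries, since it was -0.22 without SG male 2 and -0.0040 without YSGr male 8. These counts do not show that the sexes differ, which needs the test of the difference.

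That test called 0 of the 10 (limma), and 0.00707% of all genes, which is 1 gene. At an unadjusted p under 0.05 there were 2 of the 10, Axl and Crim1, and 1634 of all genes. The female effect was below the male effect for 8 of the 10, with a median difference of -0.60 log2 units, beside 0.01 over all genes. This median was -0.30 with library weights and -0.38 with SG male 2 and YSGr male 8 both left out. Such a shift was not particular to the 10. It was negative for 18 of 23 tested genes of the wider target list below (median -0.55). So it was for 9 of 10 pericyte, fibroblast and meningeal markers (median -0.75). For granule neuron progenitor and Hedgehog tumour markers 10 of 12 were positive. Crim1 differed by -1.06 (95% interval -2.01 to -0.12, unadjusted p = 0.030, adjusted p = 0.43). Axl differed by -0.61 (95% interval -1.14 to -0.09, unadjusted p = 0.025, adjusted p = 0.43). Yap1 itself had log2 fold changes of -4.32 in females and -2.96 in males, and the difference of -1.36 did not pass (adjusted p = 0.43), although with library weights it did (-1.35, adjusted p = 0.029).

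Females were also compared with males within each genotype. Among YSGr libraries 0 of the 10 passed (limma), where 0.0778% of all genes did, and 2 of the 10 and 2566 of all genes had an unadjusted p under 0.05. Axl was lower in YSGr females than in YSGr males, at 59.3, 43.6 and 41.4 CPM against 70.9, 82.6 and 61.1 CPM (log2 fold change -0.58, adjusted p = 0.15). Crim1 was lower in YSGr females than in YSGr males by the values above (log2 fold change -0.81, adjusted p = 0.21). Among SG libraries 0 of the 10 passed, where 0.0353% of all genes did. At an unadjusted p under 0.05 there were 1 of the 10, Asap1 at 0.56 (adjusted p = 0.98), and 259 of all genes.

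**Figure D3:**
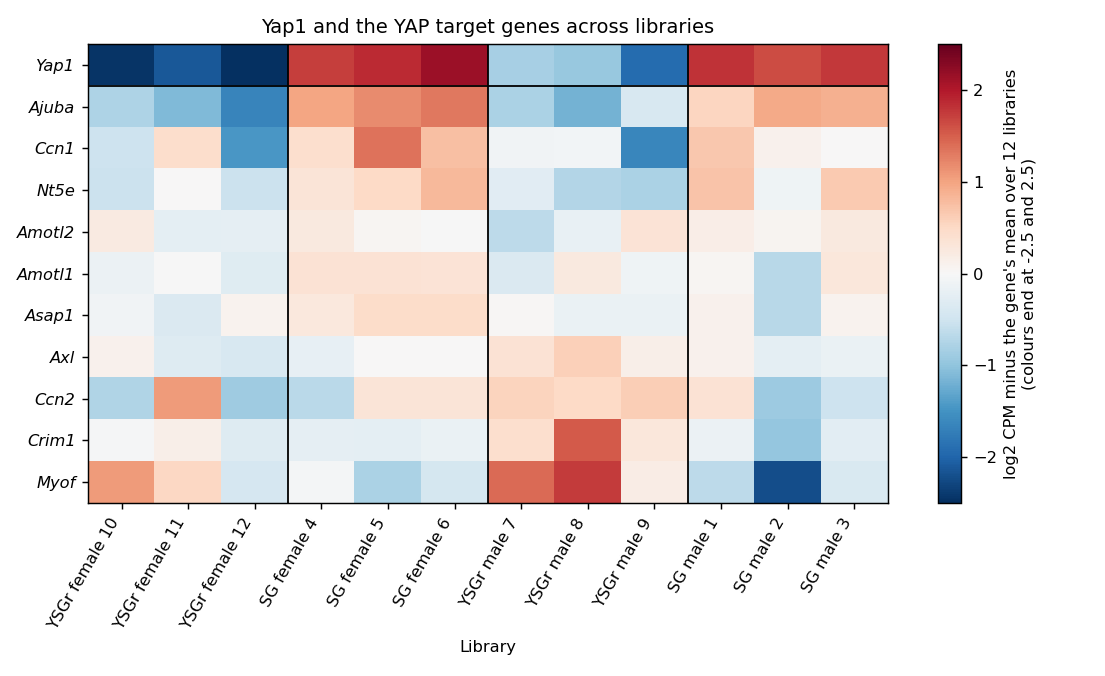
Deviation of Yap1 and each target gene from its own mean over the 12 libraries (log2 CPM, colour), by library. Yap1 is low in all YSGr columns, and the Ajuba row follows the genotype. SG male 2 is the lowest column for Ccn2, Amotl1, Crim1, Myof and Asap1, with a Myof deviation of -2.22 log2 units.

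Across libraries, the targets varied in their own ways. Myof spanned 3.97 log2 units between its lowest and highest library, Ccn1 2.99, Ajuba 2.98 and Crim1 2.51, while Amotl2 and Axl each spanned under 1. Among the 10, the closest pair was Amotl1 and Asap1, whose mean-centred values differed by 0.24 log2 units (root mean square over 12 libraries). SG female 5 was the highest library for 3 targets and YSGr male 8 for 3 others, Crim1, Myof and Axl. YSGr female 12 lay 0.62 log2 units below the targets' means, averaged over the 10.

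Likeness to other genes was measured as the root mean square difference of mean-centred log2 CPM over the same 12 libraries, among 12530 genes, and is a description only. Nearest to Ajuba were Erbb2 at 0.28, with a log2 fold change of -1.83, and Igf2bp3 at 0.37, with -1.62. Nearest to Myof were Ttc39b at 0.43 and Zbtb16 at 0.44. Crim1 was matched most closely by Kif1a at 0.13 and Prepl at 0.15. Ccn1 had Mfsd2a at 0.38 and Col7a1 at 0.40, and Ccn2 had Slc35f3 at 0.32 and Slc41a3 at 0.33. Amotl1 had Bach2 and Dlg5, both at 0.13, and Asap1 had Fam122b and Iqgap1, both at 0.10.

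Levels between genes were compared as CPM per kilobase of exon, averaged over 6 libraries per genotype. Asap1 was highest, at 12.5 ± 1.38 CPM per kilobase in YSGr and 15.1 ± 3.76 in SG (SD), followed by Axl at 11.9 ± 3.14 in YSGr and 10.3 ± 1.02 in SG. The angiomotin-like genes came next, Amotl2 at 7.41 ± 1.83 in YSGr and 8.61 ± 0.666 in SG, and Amotl1 at 4.80 ± 0.744 in YSGr and 5.76 ± 1.37 in SG. Crim1 was at 3.39 ± 1.87 in YSGr and 1.955 ± 0.366 in SG, and Ccn1 at 1.74 ± 0.942 in YSGr and 3.57 ± 1.35 in SG. Ccn2 was at 1.66 ± 0.815 in YSGr and 1.22 ± 0.490 in SG.

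Ajuba was at 0.843 ± 0.261 CPM per kilobase in YSGr and 3.37 ± 0.620 in SG, and Nt5e at 0.647 ± 0.146 in YSGr and 1.28 ± 0.274 in SG. Myof was lowest in both genotypes, at 0.522 ± 0.281 in YSGr and 0.167 ± 0.0713 in SG. In YSGr every pair of neighbours in this order other than Amotl2 and Amotl1 overlapped within 1 SD. In SG, where Ajuba stood next to Ccn1, the neighbours that overlapped within 1 SD were Asap1 and Axl, Amotl1 and Ccn1, Ccn1 and Ajuba, and Nt5e and Ccn2.

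The promoters are shown for the gene that fell most, for Ccn1, and for Crim1 and Myof, whose values went the other way in males. The windows are the 250 bases before the RefSeq start (GRCm38.p6), on the gene's strand, for Ajuba at chr14:54577662-54577911 (minus), Ccn1 at chr3:145649986-145650235 (minus), Crim1 at chr17:78199998-78200247 (plus) and Myof at chr19:38043578-38043827 (minus). Capitals mark the TEAD motif GGAATG, also read as CATTCC on the other strand.
Ajuba: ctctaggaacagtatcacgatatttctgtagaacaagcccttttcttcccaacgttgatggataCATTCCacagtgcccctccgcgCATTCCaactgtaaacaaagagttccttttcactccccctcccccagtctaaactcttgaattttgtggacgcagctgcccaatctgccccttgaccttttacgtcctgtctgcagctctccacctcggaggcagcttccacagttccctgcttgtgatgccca
Ccn1: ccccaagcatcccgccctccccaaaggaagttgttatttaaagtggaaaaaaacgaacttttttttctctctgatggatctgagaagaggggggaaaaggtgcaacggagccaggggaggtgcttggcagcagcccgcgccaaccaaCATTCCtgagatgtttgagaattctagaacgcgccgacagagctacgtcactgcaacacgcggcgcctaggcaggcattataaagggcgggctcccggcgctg
Crim1: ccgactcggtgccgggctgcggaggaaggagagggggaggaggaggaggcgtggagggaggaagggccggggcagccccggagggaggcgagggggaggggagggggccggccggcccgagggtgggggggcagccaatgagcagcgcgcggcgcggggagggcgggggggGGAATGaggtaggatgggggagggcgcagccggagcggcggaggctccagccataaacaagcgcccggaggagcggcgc
Myof: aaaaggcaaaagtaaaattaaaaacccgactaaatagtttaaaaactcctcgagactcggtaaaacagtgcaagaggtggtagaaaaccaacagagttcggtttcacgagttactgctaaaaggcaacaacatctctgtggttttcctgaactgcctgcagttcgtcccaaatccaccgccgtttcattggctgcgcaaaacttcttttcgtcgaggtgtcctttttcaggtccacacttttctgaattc
The Ajuba window held 2 matches, starting 186 and 164 bases before the start. The Ccn1 window held 1 at 103 bases, the Crim1 window 1 at 79 bases and the Myof window none.

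Of the 10 targets 8 matched the RefSeq promoter table, and Ccn2 and Asap1 had no entry. The TEAD motif was found in 5 of these 8 windows, Ajuba, Ccn1, Crim1, Amotl2 and Axl, and in 12.6% of all 32851 windows of that length. Genes with a match thus included Ajuba at -1.96 and Crim1 at 0.67, and Nt5e, which fell by 0.96 on the log2 scale, had none. The windows of Nt5e, Amotl1 and Amotl2 lie inside the GENCODE genes, whose first start is further upstream than the RefSeq start. The AP-1 motif TGANTCA, searched on both strands, was in none of the 8 and in 6.75% of all windows. A match is a description of letters and not a bound site.

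A wider list of 25 known YAP and TEAD targets was also mixed in direction. Of its genes 24 were in the table and 23 were tested, and 4 rose and 3 fell on average, with a median log2 fold change of -0.17. Over all genes 6.16% were called higher and 5.27% lower. The called genes of the list numbered 4 in place of 7 without SG female 5 or without SG female 6. Calls over all genes also fell in those fits, from 1617 to 919 and 903. Fstl1, a secreted follistatin-like glycoprotein, fell by 0.88 on the log2 scale (limma adjusted p = 0.00044), and Tgfb1i1, a LIM-domain protein of focal adhesions, fell by 1.01 (adjusted p = 0.0015). For both, all 6 YSGr libraries lay below all 6 SG libraries. Thbs1, which encodes the matricellular protein thrombospondin, rose by 1.74 (adjusted p = 0.0024), and the growth factor gene Fgf1 by 1.22 (adjusted p = 0.0077). Both rises passed in males (limma adjusted p = 0.0069 and 0.026) and not in females (0.27 and 0.22). The difference between the sexes did not pass for either (0.43 and 0.58).

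Genes of the YAP complex itself included 4 of 7 that fell and 0 that rose, where 5.27% of all genes were called lower. The 4 include Yap1, the deleted gene, whose fall was set by the design. Beside Yap1 at -3.64 ± 0.20 (limma adjusted p = 1.1e-06), Wwtr1, which encodes TAZ, fell to 16.3 ± 2.43 CPM in YSGr against 30.7 ± 7.79 CPM in SG (SD, n = 6 each, log2 fold change -0.88 ± 0.15, adjusted p = 0.0025). Among the TEAD genes, Tead2 fell to 203 ± 44.8 CPM in YSGr against 339 ± 47.5 CPM in SG (-0.75 ± 0.12, adjusted p = 0.0016). Tead3 fell to 7.16 ± 0.603 CPM in YSGr against 10.8 ± 0.852 CPM in SG (-0.58 ± 0.12, adjusted p = 0.0082). In females Wwtr1 and Tead3 passed (limma adjusted p = 0.0073 and 0.035) and Tead2 did not (0.13). In males Tead2 passed (0.0078), and Wwtr1 (0.14) and Tead3 (0.12) did not. The difference between the sexes did not pass for any of them (adjusted p 0.43 to 0.57). Tead1 was at -0.06 ± 0.21 (adjusted p = 0.89), with SG male 2 at 69.3 CPM and the other 11 libraries at 119 to 208 CPM. Tead4 was at 0.69 ± 0.34 (adjusted p = 0.20) and had at most 1.91 CPM in any library.

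Of 13 Hippo kinases and regulators, 2 of which are on the wider target list too, 2 fell and 0 rose, with a median of -0.17. Over all genes 11.4% were called, 5.27% lower. Wwc1, which encodes the adaptor KIBRA, fell by 0.57 on the log2 scale (limma adjusted p = 0.0057). Wwc2 fell by 0.69 (adjusted p = 0.036), a call kept in 3 of 12 fits without 1 library. That count of 2 was 6 without SG male 2 and 1 in most of the other fits without 1 library. Over all genes, fits without 1 library called 903 to 2087. Among 7 tested paralogs of the 10 targets, 2 fell and 0 rose, beside the same shares of all genes. They were the Ajuba relatives Limd1 at -0.58 (adjusted p = 0.0041) and Wtip at -0.55 (adjusted p = 0.047), and the Wtip call was kept in 1 of 12 such fits. The count of 2 was 4 without YSGr female 12 and 1 in 9 of the other 11 such fits. Of 5 genes that bind or act with the products of Axl and Nt5e, Gas6 and Pros1 among them, 0 passed.

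**Figure D4:**
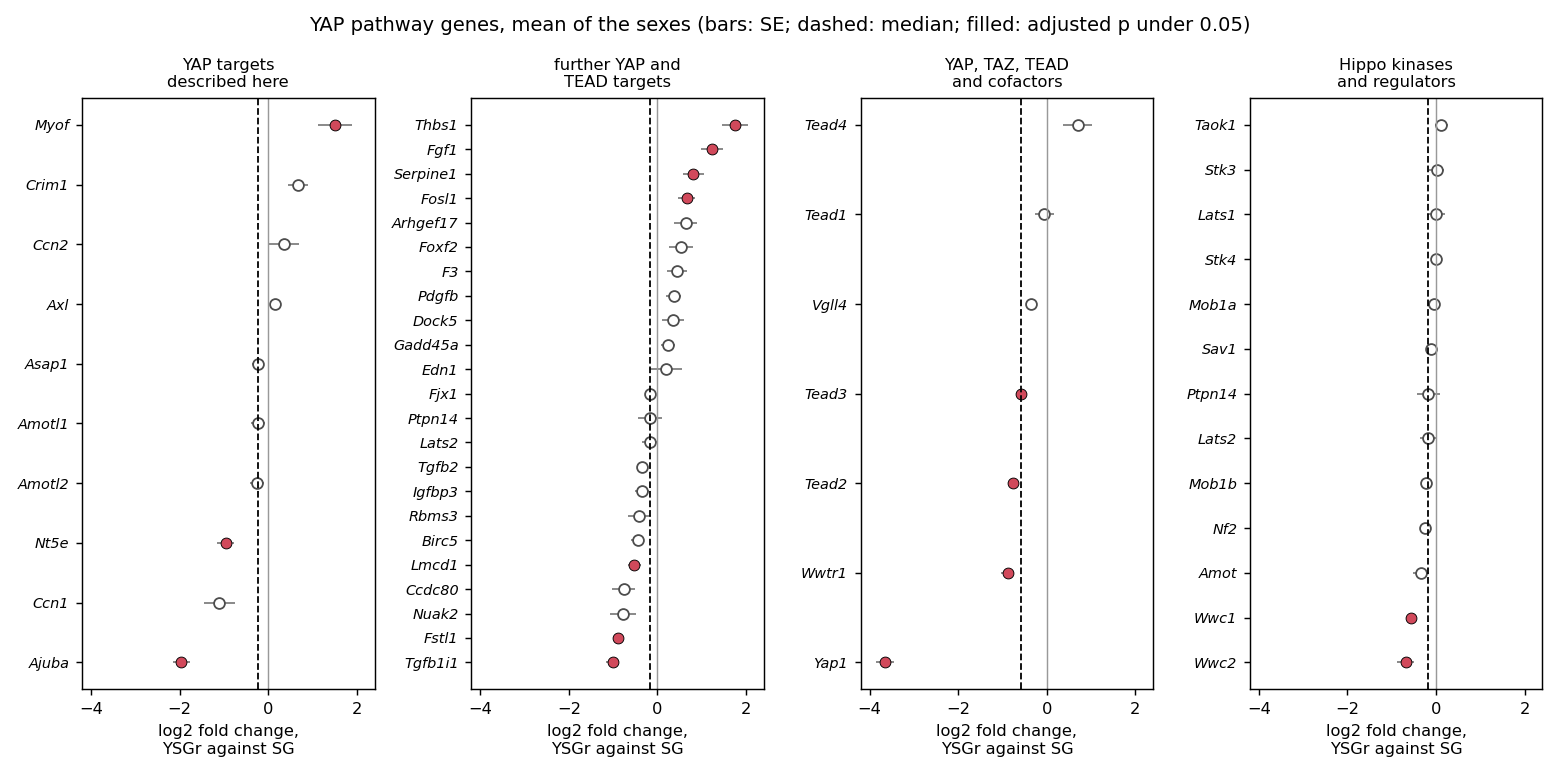
log2 fold change of YSGr against SG (mean of the sexes) for the 10 targets, the wider target list, the YAP complex genes and the Hippo regulators. Bars are SE, dashed lines list medians, and filled points have an adjusted p under 0.05. The target panels hold filled points on both sides of 0, from Ajuba at -1.96 to Thbs1 at 1.74, and the other panels hold filled points below 0.

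In bulk tissue, fewer cells of a type and less RNA per cell cannot be told apart, and several targets are also used by cells other than tumour cells. The counts of markers below stand beside 6.16% of all genes called higher and 5.27% called lower. Endothelial markers fell for 5 of 10 and rose for 0 (median -0.55), and their summed level was 61.5 to 107 CPM in YSGr and 94.97 to 158 CPM in SG libraries. Pericyte, fibroblast and meningeal markers fell for 3 of 10 and rose for 1, at 162 to 345 CPM in YSGr and 248 to 348 CPM in SG. Astrocyte and neural stem cell markers fell for 3 of 8 and rose for 1, at 1102 to 2354 CPM in YSGr and 1355 to 2157 CPM in SG. Falls in these lists stood beside the falls of Ajuba and Nt5e and the lower values of Ccn1, and their part in them was not tested.

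Microglia and macrophage markers rose for 4 of 12 and fell for 0, at 786 to 1217 CPM in YSGr and 528 to 605 CPM in SG. Their median log2 fold change was 0.40, with 9 values positive and 3 negative, and the sums weigh the higher genes of the list more. Of 7 listed neutrophil markers 5 were in the table, and they summed to 4.22 to 20.3 CPM in YSGr and 0.665 to 1.31 CPM in SG. The 4 that were tested rose. At these SG levels they could pass the filter on low values only through YSGr libraries, so that count was largely set by the filter. Granule neuron progenitor and Hedgehog tumour markers fell for 5 of 12 and rose for 0 (median -0.50). These falls also stood beside those of Ajuba and Nt5e, and their part in them was not tested. Granule neuron markers rose for 2 of 6 and fell for 0. Red blood cell markers passed for 0 of 4 tested. Oligodendrocyte lineage markers fell for 2 of 7 and rose for 0, and summed to 8922 CPM in YSGr male 8, 1081 to 2672 CPM in the other YSGr libraries and 1661 to 2577 CPM in SG. YSGr male 8 was also the highest library for Crim1, Myof and Axl. Among the YSGr libraries the oligodendrocyte sum and Crim1 had the same order, down to YSGr female 12 at 1081 CPM and 11.5 CPM. Among the SG libraries the orders differed. SG male 1 was highest for both, at 2577 CPM of these markers and 13.2 CPM of Crim1. SG male 2 had 2482 CPM of these markers and the lowest Crim1, 7.32 CPM. The part of these cells in the Crim1 values was not tested. The summed microglia, macrophage and neutrophil markers were higher in YSGr, as Myof was, and their part in its rise was not tested. None of these markers was at 0 in all libraries of a genotype.

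**Figure D5:**
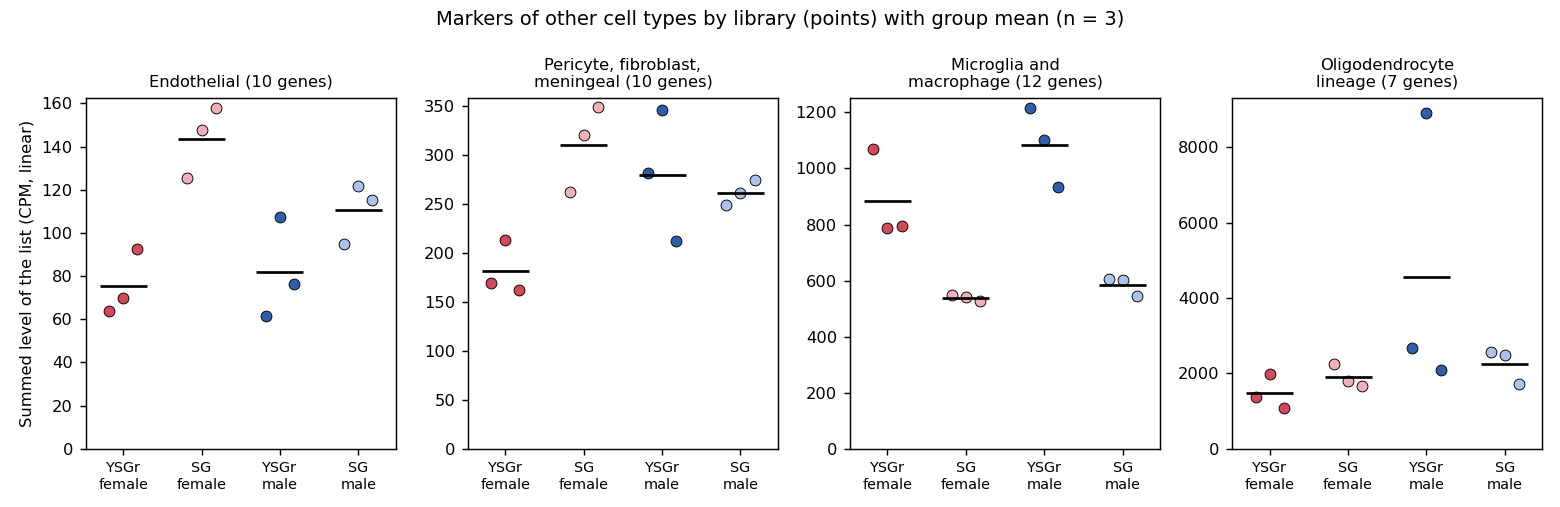
Summed level (linear CPM) of 4 lists of markers of other cell types in each library, grouped as YSGr female, SG female, YSGr male and SG male, with group means (n = 3). Microglia and macrophage sums are higher in every YSGr library, at 786 to 1217 CPM, than in every SG library, at 528 to 605 CPM, and the oligodendrocyte panel holds 1 point at 8922 CPM, YSGr male 8.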

How the data were processed

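The authors deposited 1 table of log2 CPM values for 15672 genes in 12 libraries, and no column was left unused. Per the submitters' processing notes, they used Trimmomatic 0.33, RSEM 1.2.12, Bowtie2, Picard 1.95, edgeR 3.30.3 and build mm10. The role of each tool, the gene annotation and the strand setting were not given in the sources used here. Per the labels' protocols, total RNA was sequenced on a BGISEQ-500.

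Every library shares a lowest value of -2.24 log2 CPM, the value of a gene with no reads, which was subtracted on the linear scale to give CPM. The steps between low values gave estimated reads, whole within 0.02 for 91.7 to 93.3% of genes under 200 reads. Fold changes include this prior count and understate the change of low genes. A floor of 3 reads corresponds to 0.301 to 0.333 CPM.

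limma 3.58.1 (R 4.3.3) was fitted to the deposited values of 14147 genes with log2 CPM above 0 in at least 3 libraries, with 1 coefficient per group, a mean-variance trend and two-sided tests. p-values were Benjamini-Hochberg adjusted over these genes, at a threshold of 0.05. The fit was tested on simulated data. Alternatives were 23 other settings. Intervals are before adjustment. Named genes were the 10 targets, Yap1, Wwtr1, the TEAD genes, Gas6 and Pros1, then up to 4 called genes per pathway list by adjusted p, and the 2 nearest genes by likeness (those of Nt5e are not reported here). Coordinates are from GENCODE M21 (mm10) and promoters from RefSeq (GRCm38.p6). The members, lists and tests were chosen with earlier results of these data known.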

Additional observations from a re-analysis of the deposited data

Results flagged for a closer look

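SG male 2 lay far below the other 5 SG libraries for 4 of the 10 targets. It was at 5.01 log2 CPM for Amotl1, with the next SG library at 5.74, at 2.91 for Crim1 (next 3.62), at -0.39 for Myof (next 1.05) and at 5.97 for Asap1 (next 6.75). In each case the gap, as a share of the range of the 6 libraries, was above the 95% critical value of Dixon's test. The test was applied to 22 groups of 6, for Yap1 and the 10 targets in each genotype, and chance flags about 1 in 20 groups. The 4 flags share 1 library and are not independent.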

How the results depend on the processing

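No paired analysis was possible because the libraries are numbered 1 to 12 and the groups share no number. Among 23 other settings, the averaged calls of Ajuba and Nt5e were made in all 23 and that of Myof in 19. Ajuba passed in all 23 in females and in 22 in males, the exception being the fit with SG male 2 and YSGr male 8 both left out (adjusted p = 0.066), a setting chosen after seeing the data. Nt5e passed in 12 of 23 in males, Crim1 in 12 and Myof in 15. Ccn1 passed on average under quantile normalization (-1.22, adjusted p = 0.023) and library weights (-1.23, adjusted p = 0.0031). The cause of these changes was not tested.

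With library weights, called targets numbered 7 on average and 6 in females, and called genes 4986 on average, 4483 in females, 2326 in males, 675 for the difference between the sexes, 28 between the sexes in SG and 1819 in YSGr. Fitting only the groups compared gave 2 targets and 761 genes in females, 1 target and 318 genes in males, and 7 genes between the sexes in YSGr. With SG male 2 and YSGr male 8 both left out there were 4 targets and 1267 genes in females, 0 targets and 247 genes in males, and 19 genes between the sexes in YSGr. Of the 10 targets, 1 passed in males with no filter on low values, Ajuba.

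Leaving out 1 library at a time gave 903 to 2087 genes (lowest without SG female 6) and 2 to 5 targets on average, 94 (without SG female 6) to 785 genes (without SG male 2) and 1 to 3 targets in females, and 289 (without YSGr male 8) to 1665 genes and 1 to 4 targets in males. It gave 1 to 115 genes for the difference between the sexes and 9 to 1029 between the sexes in YSGr, with 115 and 1029 without YSGr female 11. The target counts were highest without SG male 2 on average (5) and in females (3).

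Signs turned only for values that did not pass. With library weights, Ccn2 was -0.056 on average, Amotl2 0.066 and Axl 0.081 in females, and Amotl1 -0.32 and Asap1 -0.15 in males. With both doubted libraries out, Amotl1 was -0.39 and Asap1 -0.17 in males. Leaving out 1 library, the ranges that crossed 0 were -0.29 to 0.078 for Tead1 on average, -0.82 to 0.16 for Ccn2 in females, -0.24 to 0.25 for Amotl1 and -0.20 to 0.20 for Asap1 in males, and, for the difference between the sexes, -0.093 to 0.40 for Amotl2 and -0.067 to 0.38 for Nt5e. Depth limits low genes such as Myof, with 5 to 111 estimated reads per library.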
